A study of Mus musculus with 24 samples.

Results

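The interaction between Cntnap2 genotype and prenatal stress was examined in RNA from the mouse striatum. It is the stress difference in het mice (stressed het minus control het) minus the stress difference in wild-type mice (stressed wild type minus control wild type), on the log2 scale. All 12 RNA libraries of the series, of 24 libraries in all, entered one fit, and every gene was taken, of which 15955 of 37289 in the files passed a filter on low counts and were tested. A positive interaction means that the stress difference was higher in hets than in wild types. The 4 groups held 3 female C57BL/6 mice each. Stressed hets were heterozygous for Cntnap2 and born to dams put through variable stress for 7 days from embryonic day 12.5. Control hets had the same genotype and dams that were not stressed. Stressed and control wild types differed in the same way from each other and carried no Cntnap2 mutation. All mice were ear-tagged on postnatal day 12 and weaned on postnatal day 18, and the tissue was a frozen micropunch, so each library mixed all cells of the punch. The labels do not say which mice were littermates, and the p-values cover the spread between single mice.

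Cntnap2 encodes Caspr2, a cell adhesion protein of neurons that gathers Kv1 potassium channels beside the node of Ranvier and also acts at synapses. Loss of both copies in people causes a syndrome with epilepsy and autism, and carriers of a single mutated copy are studied for the part that the environment plays. The striatum consists mostly of spiny projection neurons, with fewer interneurons, and is crossed by myelinated fibre bundles. In a design with 2 factors, a gene can respond to stress in the same way in both genotypes, in 1 genotype more than in the other, or in opposite directions, and the interaction measures the departure from the first case.

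Library totals ran from 13587154 to 24039706 expected counts, with 21410135 to 24039706 in hets and 13587154 to 18538304 in wild types, so depth went with genotype. The spiny neuron marker Ppp1r1b, which encodes the dopamine-regulated phosphatase inhibitor DARPP-32, had 1109 to 2573 TPM (transcript abundance per length, scaled to the library). Stressed wild-type replicate 2 had 1.32 TPM of Xist, the RNA that coats the inactive X chromosome of females, against 23.1 to 108.6 TPM in the other 11 libraries, which goes against its female label. The RNA data of control het replicate 1 carry another animal number than its label. The slope of a library's values on gene length was lowest in control het replicate 1 (-0.37) and control wild-type replicate 1 (-0.30) and highest in stressed wild-type replicate 3 (0.29) and control wild-type replicate 3 (0.28), against -0.08 to 0.14 in the other 8. In a bulk punch, fewer cells of a type and less RNA per cell cannot be told apart.

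No gene passed the test of the interaction. Of 15955 genes, 0 (0%) were called by edgeR's quasi-likelihood test at an adjusted p of 0.05, and the smallest adjusted p was 0.999968. The interaction was called for 0 genes by DESeq2 as well, and for 0 by both limma-trend and sample-weighted limma-voom. At an unadjusted p under 0.05 there were 212 genes, 1.33% of those tested, of which 137 (0.859%) had a positive and 75 (0.47%) a negative interaction. Evenly spread p-values, as with no interaction in any gene, would put a larger share, 0.05, under this threshold. Without stressed wild-type replicate 2, the library whose Xist went against its label, the counts were 0 called and 242 with an unadjusted p under 0.05. Without control het replicate 1, whose RNA data carry another animal number, they were 0 and 522. No interaction given from the fit of all 12 libraries is therefore a called difference, and each gene is described by its values. Values after ± are standard errors (SE) unless stated otherwise. By the same fit, the stress difference had an unadjusted p under 0.05 for 179 genes (1.12%) in hets and for 397 genes (2.49%) in wild types, with 0 called in each, and how far these counts differ was not tested. Stressed and control mice did not overlap for 1066 genes (6.68%) in hets and 924 genes (5.79%) in wild types. The median size of the interaction was 0.15, against a median standard error (SE) of 0.36. The 95% interval lay within 1 log2 unit of 0 for 8429 genes (52.8%), and for the other genes it reached a 2-fold difference in 1 direction or both.

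Cntnap2 itself showed no detectable interaction. Its level was 73.2, 68.7 and 79.95 CPM (read counts scaled to library size with TMM factors) in stressed hets, 76.5, 58.2 and 70.5 in control hets, 80.6, 82.7 and 129.7 in stressed wild types and 76.8, 73.9 and 112 in control wild types. Stressed and control mice overlapped in both genotypes, and the highest values were those of stressed wild-type replicate 3 and control wild-type replicate 3. The stress difference was 0.11 in hets and 0.16 in wild types (log2), and the interaction was -0.05 ± 0.31 (SE), with an interval from -0.73 to 0.64 and an unadjusted p of 0.887. In TPM, which allow for transcript length, an exact permutation test of the prenatal labels within each genotype gave an interaction of 0.22 and a two-sided p of 0.5, where the smallest p that 400 arrangements allow is 0.005. The sign was positive in TPM and negative in the fit of counts above. It was opposite to that of the count fit in 8 of 21 alternative settings, among them limma-voom on counts (0.085).

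Across all genes, the stress differences in hets and in wild types, which share no library, had Pearson's r of 0.18 and Spearman's rho of 0.33, a description over genes that are not independent of each other. The sign agreed for 10284 genes (64.5%). It changed with the libraries that stood apart in length slope: rho was -0.14 without control het replicate 1, -0.23 without control wild-type replicate 1 and 0.00 without stressed wild-type replicate 3, against 0.50 without control wild-type replicate 3.

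Shapes over the 4 groups were told apart by the 2 stress differences of a gene. A gene was opposite where they had different signs and the smaller was at least 0.5 of the larger. It was buffered in hets where the het difference was under 0.5 of the wild-type one in size, enhanced in hets in the reverse case, and otherwise in the same direction. Among the 212 genes with an unadjusted interaction p under 0.05, 100 (47.2%) were buffered in hets, 88 (41.5%) opposite, 24 (11.3%) enhanced in hets and 0 in the same direction. Over all genes tested, the shapes held 29.6% (buffered), 13.2% (opposite), 27.5% (enhanced) and 29.7% (same direction). Choosing genes by their interaction favours opposite and unequal shapes by construction, so these shares were not tested. Between the 2 unequal shapes, 100 were buffered and 24 enhanced, against 29.6% and 27.5% of all genes tested. With sample-weighted limma-voom they numbered 751 and 667. Depth was lower in wild types, and its part in the split was not tested. The direction of the split differed in 1 of the 12 fits that left out a library: without control het replicate 1, 126 genes were buffered and 139 enhanced.

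**Figure D1:**
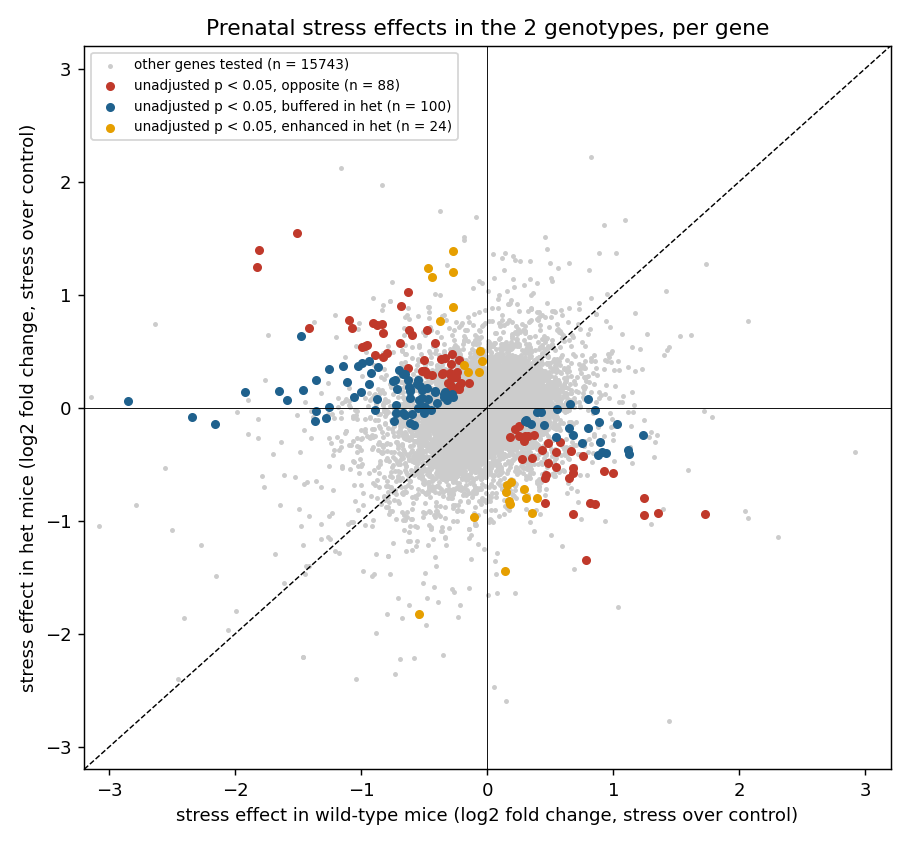
Stress difference of each gene (log2, stressed over control) in hets on the vertical axis and in wild types on the horizontal axis. Genes with an unadjusted interaction p under 0.05 are coloured by shape, the other 15743 genes are grey, the dashed line marks equal differences, and 49 genes lie outside the axes. The 100 genes buffered in hets form a band near 0 on the vertical axis, and most of them lie left of 0 on the horizontal one.

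Among the 212 genes, the group that stood farthest from the other 3 was most often the control wild types, whereas over all genes tested the most frequent case was control hets low (16.9%). In the 212, the mean of control wild types was the farthest and high for 74 (34.9%), against 10.8% of all genes tested. The 212 were chosen by the interaction, which is computed from the same 4 group means, so the shares were not tested. Stressed hets were the farthest group for 12 of the 212, with 4 high (1.89%) and 8 low (3.77%). Over all genes tested, stressed hets were the farthest and high for 10.6% and low for 7.20%. All 3 control wild types lay above all 9 other libraries for 27 of the 212 genes, and for 74 of all genes tested (0.464%). Stressed hets lay above all others for 25 genes of all tested (0.157%) and below them for 16 (0.1%). Markers of choroid plexus and of thalamus, which lie outside the striatum, were also higher in control wild types than in stressed wild types, and their part in this count was not tested. The mean log2 level of the choroid plexus list, after removing each gene's mean, ran from -1.46 to 1.46 in stressed hets, -1.34 to 1.72 in control hets, -1.51 to -0.81 in stressed wild types and 0.72 to 1.51 in control wild types. That of the thalamus list ran from -0.20 to 0.01 in stressed hets, -0.32 to -0.16 in control hets, -0.45 to 0.01 in stressed wild types and 0.11 to 1.18 in control wild types. Of their defining markers, Kcne2 of the choroid plexus was at 0 in 2 stressed wild types and Shox2 of the thalamus in 1.

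**Figure D2:**
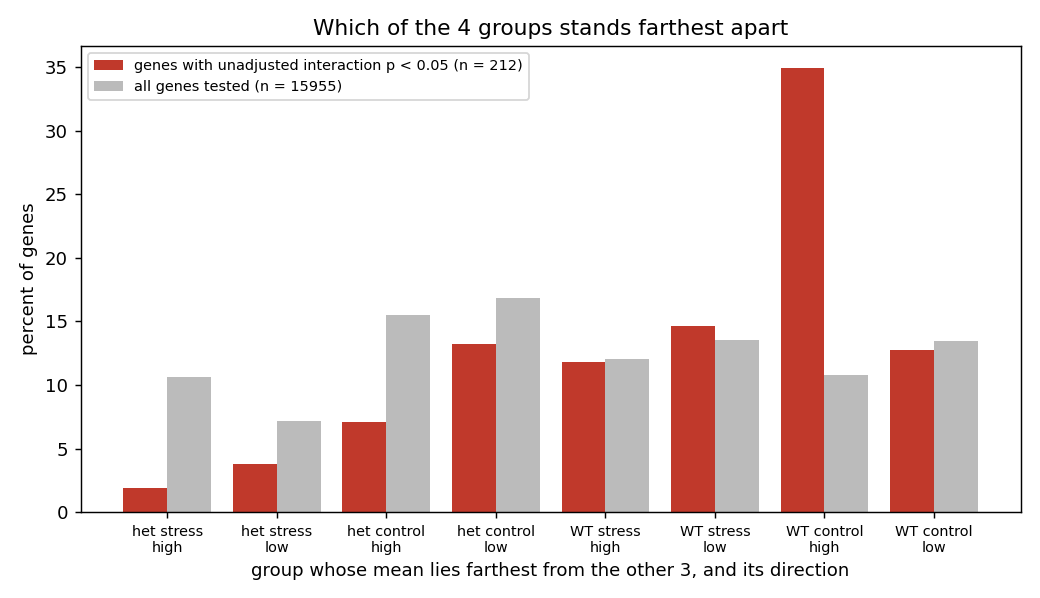
Percent of genes (vertical axis) for which each group's mean log2 level lies farthest from the mean of the other 3 groups, by group and direction (horizontal axis), for the 212 genes with an unadjusted interaction p under 0.05 (red) and all 15955 genes tested (grey). The bar of control wild types standing high reaches 34.9% in red against 10.8% in grey. The 212 genes were chosen from the same group means, and the shares were not tested.

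Genes buffered in hets were led by Rab37 and Spp1. Rab37, a small GTPase of regulated secretion, had 9.81, 9.20 and 6.60 CPM in stressed hets, 6.18, 8.96 and 7.98 in control hets, 6.35, 7.98 and 3.90 in stressed wild types and 18.7, 13.2 and 25.6 in control wild types. All 3 control wild types lay above all 9 other libraries, and the het groups overlapped. The stress difference was 0.15 in hets and -1.66 in wild types, and the interaction was 1.80 ± 0.43 (SE; unadjusted p = 0.00154), with a range of 1.53 to 2.05 over the fits that left out 1 library. Spp1, which encodes the secreted phosphoprotein osteopontin, had 26.8, 16.1 and 16.2 CPM in stressed hets, 10.01, 13.1 and 14.9 in control hets, 12.8, 18.1 and 7.11 in stressed wild types and 26.5, 25.7 and 53.4 in control wild types. Stressed hets lay above control hets, and stressed wild types lay below control wild types, without overlap in either genotype. Its stress difference was 0.64 in hets and -1.48 in wild types, a ratio that places it among the buffered genes although the signs differ, and the interaction was 2.11 ± 0.54 (SE; unadjusted p = 0.00252).

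Hhatl, related to the hedgehog acyltransferase, had 8.22, 9.95 and 8.12 CPM in stressed hets, 7.95, 8.64 and 6.58 in control hets, 6.20, 7.33 and 6.93 in stressed wild types and 12.4, 8.43 and 10.8 in control wild types. Stressed wild types all lay below control wild types, and the het groups overlapped. Its interaction was 0.81 ± 0.25, with 0.18 in hets and -0.63 in wild types. The pseudogene Rpsa-ps10 had an interaction of 2.26 ± 0.75, but its control wild types ranged from 2.09 to 15.8 CPM and its reads may come from copies of Rpsa. Kcns3, a Kv channel subunit that modifies other Kv subunits, had 2.74, 3.80 and 2.49 CPM in stressed hets, 3.18, 3.11 and 2.88 in control hets, 3.21, 2.71 and 2.64 in stressed wild types and 4.45, 5.30 and 6.10 in control wild types. Only the control wild types stood above the rest, with an interaction of 0.87 ± 0.29. The same order was seen at low level for Sptssb, a subunit that modifies serine palmitoyltransferase (1.26 ± 0.42). The transporter gene Abcg3 (1.51 ± 0.43) and the genes without a symbol, ENSMUSG00000091663.1 (0.75 ± 0.22) and ENSMUSG00000075319.2 (4.52 ± 1.42), also had control wild types above stressed wild types without overlap. In these 3 genes the group farthest from the rest was the stressed wild types, which were low, and hets overlapped control wild types. Abcg3 had at most 0.856 CPM in any library. Stressed wild types had 0.146, 0.271 and 0 CPM of ENSMUSG00000075319.2, so its fold rests on values near 0.

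**Figure D3:**
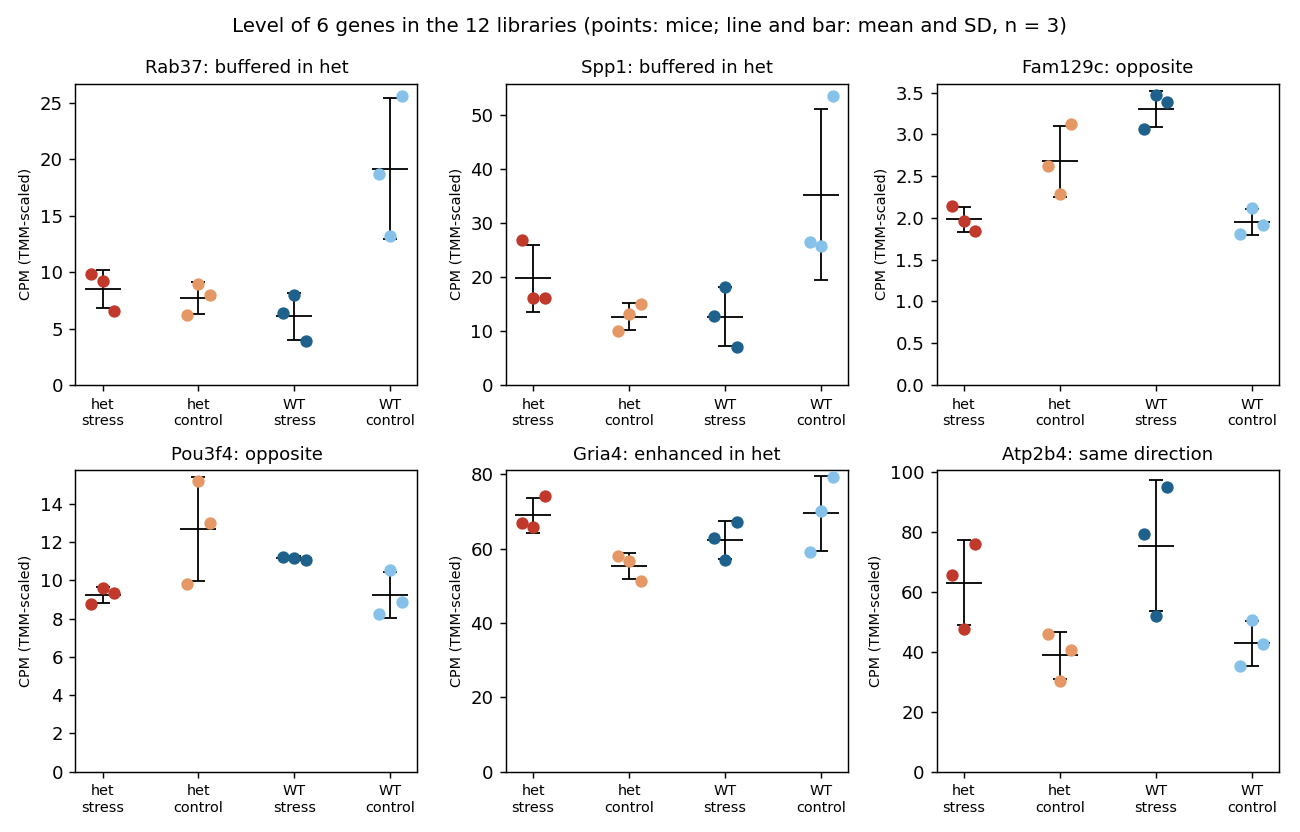
Level (TMM-scaled CPM, vertical axis) of 6 genes in the 12 libraries, by group from stressed hets on the left to control wild types on the right. Points are mice and the line and bar are the mean and SD of 3. Control wild types stand above the other groups for Rab37, stressed and control hets stand in the reverse order of stressed and control wild types for Fam129c and Pou3f4, and both stressed groups lie above their controls for Atp2b4.

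Genes with opposite shapes included the gene of smallest p. Fam129c had 2.14, 1.96 and 1.85 CPM in stressed hets, 2.62, 2.29 and 3.13 in control hets, 3.07, 3.47 and 3.38 in stressed wild types and 1.81, 2.12 and 1.92 in control wild types. Stressed hets lay below control hets and stressed wild types above control wild types, without overlap in either genotype. The stress difference was -0.43 in hets and 0.76 in wild types, and the interaction was -1.19 ± 0.26 (SE; unadjusted p = 0.000749), with -1.31 to -1.07 over the fits that left out 1 library. Pou3f4, a POU transcription factor of the developing striatum, had 8.78, 9.57 and 9.32 CPM in stressed hets, 9.78, 15.2 and 13 in control hets, 11.2, 11.2 and 11.1 in stressed wild types and 8.24, 10.6 and 8.86 in control wild types. The groups were again apart in both genotypes in CPM, with -0.46 in hets and 0.28 in wild types. The interaction was -0.73 ± 0.24 (unadjusted p = 0.0103). In TPM the het groups of Fam129c and of Pou3f4 overlapped. Pou3f4 had 11.8, 13.2 and 13.6 TPM in stressed hets and 8.74, 19.3 and 18.2 TPM in control hets. Its wild-type groups overlapped in TPM as well, while those of Fam129c stayed apart.

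Xrra1 (-1.26 ± 0.38), the forkhead factor gene Foxf1 (-1.71 ± 0.59) and ENSMUSG00000084779.2 (-1.05 ± 0.34) had the same pattern, at 3.43 CPM or below in every library. They were lower in stressed than in control hets and higher in stressed than in control wild types, with no overlap in CPM. In TPM the het groups of each of these genes overlapped, and so did the wild-type groups of Foxf1. Gm11175, a predicted gene whose reads may come from similar sequences, had 9.51, 10.6 and 11.1 CPM in stressed hets, 10.2, 15.1 and 15.7 in control hets, 16.1, 17.7 and 20.6 in stressed wild types and 11.6, 13.8 and 11.9 in control wild types. Only the wild-type groups were apart, and the interaction was -0.94 ± 0.25. In the positive direction, the predicted gene Gm7488 (1.49 ± 0.38) was lower in stressed than in control wild types without overlap, while its het groups overlapped. Acss2, which makes acetyl-CoA from acetate, had 47.1, 44.4 and 40.9 CPM in stressed hets, 37.2, 38.2 and 34.6 in control hets, 42.8, 40.4 and 34.6 in stressed wild types and 42.1, 47.7 and 50.2 in control wild types. There the het groups were apart, with stressed hets higher, the wild-type groups overlapped, and the interaction was 0.52 ± 0.18. Over all genes, 25 (0.157%) had groups apart in opposite directions in the 2 genotypes. In 17 of them stressed hets lay above control hets, and 9 of these were among the 212 genes. In the other 8 stressed hets lay below control hets, and 7 of these were among the 212.

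The remaining genes of smallest p were as follows. Zfp993, a zinc finger gene, had 0.343, 0.836 and 0.692 CPM in stressed hets, 0.0936, 0.183 and 0.411 in control hets, 0.365, 0.380 and 0 in stressed wild types and 0.549, 1.06 and 1.02 in control wild types, and its interaction was 3.21 ± 1.05. The wild-type groups did not overlap, and the het groups did. Mc3r, a melanocortin receptor, was higher in stressed than in control wild types without overlap and had an interaction of -1.30 ± 0.44. Tmem254a had an interaction of -1.06 ± 0.37 with overlap in both genotypes. Gm20444 and the pseudogene Oaz1-ps were at 0 in 7 and 8 of the 12 libraries, and no fold is given for them. Gm20444 reached at most 2.20 CPM and Oaz1-ps at most 0.73 CPM.

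In the genes named here as enhanced in hets, the het groups were apart in CPM and the wild-type groups overlapped. Rspo1, a secreted amplifier of Wnt signalling, had 4.71, 6.06 and 5.40 CPM in stressed hets, 6.32, 11.5 and 9.30 in control hets, 7.22, 5.53 and 7.28 in stressed wild types and 6.15, 6.48 and 5.42 in control wild types. Stressed hets lay below control hets, and the stress difference was -0.75 in hets and 0.15 in wild types (interaction -0.90 ± 0.31). In TPM the het groups of Rspo1 overlapped. Gria4, an AMPA-type glutamate receptor subunit, had 66.9, 65.8 and 74.2 CPM in stressed hets, 58, 56.8 and 51.3 in control hets, 62.9, 57 and 67.3 in stressed wild types and 59.1, 70.2 and 79.4 in control wild types. Stressed hets lay above control hets, with 0.32 in hets and -0.16 in wild types (interaction 0.47 ± 0.19).

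Pin4, a peptidyl-prolyl isomerase, had 10.7, 10.9 and 11.6 CPM in stressed hets, 10.5, 8.09 and 6.95 in control hets, 10.1, 11.9 and 11.2 in stressed wild types and 13.6, 13.1 and 11.2 in control wild types. All stressed hets lay above all control hets, with 0.38 in hets and -0.19 in wild types and an interaction of 0.56 ± 0.23. As for Gria4, the signs differed and the ratio lay just under the 0.5 that separates this shape from the opposite one. Fscn2, an actin-bundling fascin (-1.58 ± 0.50), and E230025N22Rik (-0.85 ± 0.29) were lower in stressed than in control hets without overlap in CPM. Fscn2 had at most 0.702 CPM in any library, and the het groups of E230025N22Rik overlapped in TPM.

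Genes with like stress differences in both genotypes, the additive case, were taken from the stress difference averaged over the genotypes, where the interaction had an unadjusted p over 0.5. In that average 374 genes (2.34%) had an unadjusted p under 0.05 and 0 were called. Atp2b4, a calcium pump of the plasma membrane, had 65.6, 47.7 and 75.8 CPM in stressed hets, 45.8, 30.4 and 40.6 in control hets, 79.4, 52 and 95 in stressed wild types and 35.4, 50.6 and 42.6 in control wild types. Both stressed groups lay above their controls, with 0.70 in hets and 0.82 in wild types and an interaction of -0.12 ± 0.36. Sgcd, which encodes delta-sarcoglycan, had 0.728, 0.711 and 1.11 CPM in stressed hets, 0.328, 0.229 and 0.411 in control hets, 0.657, 0.814 and 1.03 in stressed wild types and 0.275, 0.335 and 0.621 in control wild types. It too was apart in both genotypes, with 1.37 in hets and 1.02 in wild types. The transcript 3222401L13Rik was lower after stress in both, with -0.58 in hets and -0.56 in wild types and an interaction of -0.02 ± 0.27, and 4930404N11Rik was higher in both, with 0.84 in hets and 1.17 in wild types. Over all genes, both stressed groups lay above their controls without overlap for 28 genes (0.175%) and below them for 21 (0.132%).

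A genotype difference of like size under both prenatal conditions is the other additive case. Averaged over the conditions, 113 genes (0.708%) had an unadjusted p under 0.05 and 1 (0.00627%) was called, the pseudogene Gm6736. It had 11 to 14 CPM in stressed hets and 12.1 to 17.5 CPM in control hets, against 0 in all stressed wild types and 0.22 CPM in 1 of 3 control wild types, and its name was picked after its values were seen. With all stressed wild types at 0 its interaction has no defined size. Zfp7, a zinc finger gene, had 2.87, 3.43 and 2.54 CPM in stressed hets, 2.99, 3.11 and 2.43 in control hets, 4.74, 3.96 and 3.61 in stressed wild types and 3.57, 4.08 and 3.90 in control wild types. All 6 hets lay below all 6 wild types, and the interaction was -0.04 ± 0.26. Depth also separated the genotypes, and its part in these differences was not tested. Tmem45a (interaction -0.33 ± 0.53), ENSMUSG00000074562.2 (0.50 ± 1.51) and ENSMUSG00000091089.1 (-0.09 ± 0.56) were at or below 1.08 CPM in every library.

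Gene lists were described by the sign and the median of their interactions, beside all genes tested, of which 48.2% were positive with a median of -0.01. Of the mature oligodendrocyte and myelin genes, all 20 had a positive interaction, with a median of 0.51, and 19 of 20 had the buffered shape. The median stress difference was -0.02 in hets and -0.54 in wild types. Such a sign was not particular to this list. Positive interactions were found in 0 of 13 mitochondrially encoded, 1 of 24 spiny projection neuron and 15 of 16 microglia genes. The 20 genes share cells of origin and libraries and are not independent, and 2 of 20 had an unadjusted p under 0.05. Mal, a lipid raft protein of myelin, had 559, 591 and 528 CPM in stressed hets, 568, 583 and 551 in control hets, 469.8, 559 and 484 in stressed wild types and 717, 693 and 650.5 in control wild types. All control wild types lay above all 9 other libraries. Ugt8a, which makes the myelin lipid galactosylceramide, had 87.4, 81.8 and 74.7 CPM in stressed hets, 101, 85.6 and 81.7 in control hets, 71, 77.3 and 61.3 in stressed wild types and 91.9, 113 and 116 in control wild types. Its wild-type groups did not overlap and its het groups did.

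The interaction was 0.43 ± 0.17 for Mal and 0.48 ± 0.21 for Ugt8a. Mag, an adhesion protein of the innermost myelin layer (0.58 ± 0.27), and Enpp2, the lysophospholipid-producing enzyme autotaxin (0.62 ± 0.29), did not reach an unadjusted p of 0.05. The mean log2 level of the list, after removing each gene's mean, was 0.03, 0.04 and -0.17 in stressed hets, -0.20, 0.16 and 0.06 in control hets, -0.33, -0.04 and -0.39 in stressed wild types and 0.14, 0.27 and 0.43 in control wild types. Stressed wild types lay below control wild types without overlap, and the het groups overlapped. The median stayed between 0.40 and 0.58 in the 12 fits that left out a library, and was 0.58 without stressed wild-type replicate 2. Enpp2 is also a gene of the choroid plexus, whose markers showed the same order in wild types, and their part in this list was not tested.

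**Figure D4:**
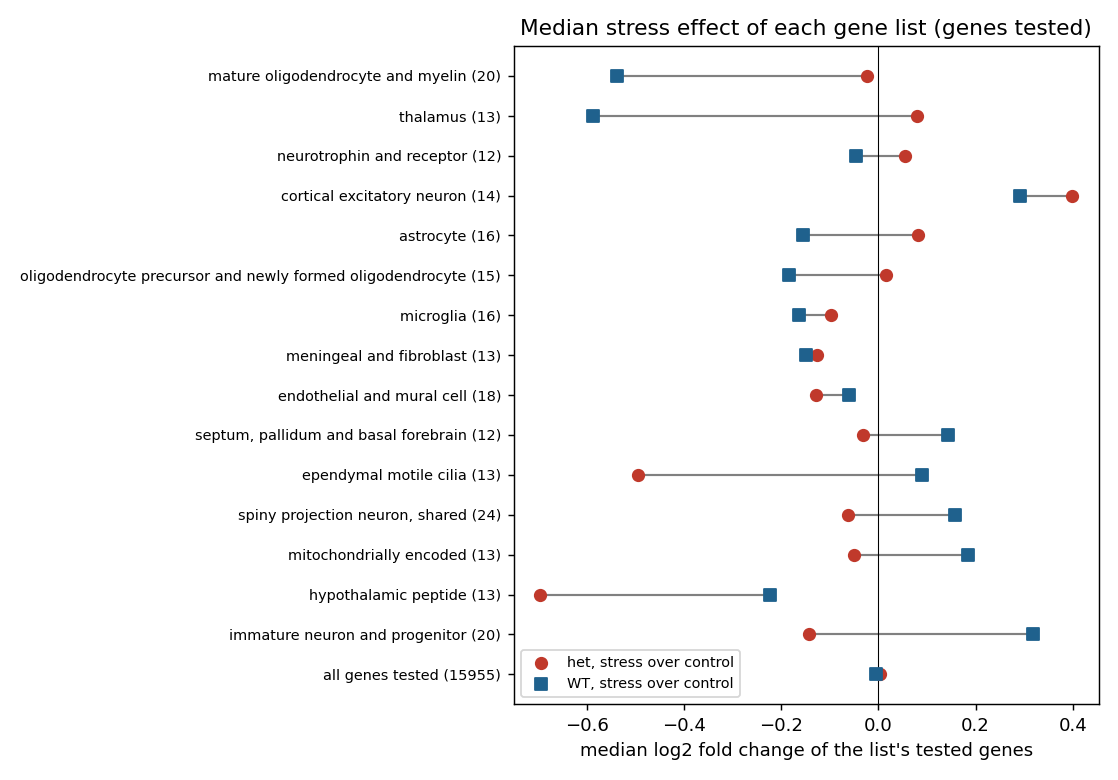
Median stress difference (log2, stressed over control, horizontal axis) of the tested genes of 15 lists and of all genes, in hets (red circles) and wild types (blue squares), with the number of genes tested in brackets. The choroid plexus list is left out, as its medians of -1.03 in hets and -2.65 in wild types lie beyond the axis. The gap is wide for the oligodendrocyte and thalamus lists, where the wild-type median is the lower one, and for the immature neuron list, where it is the higher one. The ependymal and hypothalamic peptide lists also have wide gaps, with the het median lower.

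Other glial lists had smaller medians. Oligodendrocyte precursor and newly formed oligodendrocyte genes were positive in 12 of 15, with a median of 0.18 that ran from -0.04 (without control wild-type replicate 3) to 0.39 (without control het replicate 3) with a library left out. Their member of smallest p was Bcas1, a marker of newly myelinating cells (0.63 ± 0.31), followed by Neu4 (0.36 ± 0.20), Enpp6 (0.45 ± 0.29) and C1ql1 (-0.26 ± 0.23). Astrocyte genes were positive in 14 of 16, with a median of 0.18, and 2 had an unadjusted p under 0.05. Agt, angiotensinogen, had 48.5, 42 and 36.3 CPM in stressed hets, 31.2, 17.8 and 47.5 in control hets, 22.3, 38.5 and 20.2 in stressed wild types and 59.5, 38.9 and 63.7 in control wild types. Control wild types lay above stressed wild types, by a narrow margin, and control hets spanned 17.8 to 47.5 CPM. Its interaction was 1.39 ± 0.50. Gfap, the astrocyte intermediate filament, had an interaction of 0.97 ± 0.35 with overlap in both genotypes, Gjb6, a gap junction protein, one of 0.39 ± 0.21, and Aqp4, the water channel of astrocyte endfeet, one of 0.54 ± 0.32.

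Microglia genes were positive in 15 of 16, though with a median of 0.08, and 0 had an unadjusted p under 0.05. The fractalkine receptor gene Cx3cr1 (0.28 ± 0.25) and the integrin gene Itgam (0.30 ± 0.32) came first. Endothelial and mural cell genes were split, with 8 of 18 positive and a median of -0.04, and the angiopoietin receptor gene Tek (-0.46 ± 0.47) came first. Meningeal and fibroblast genes were positive in 9 of 13, with a median of 0.07, and the collagen gene Col3a1 (0.50 ± 0.39) came first.

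Among neuronal lists, immature neuron and progenitor genes went the other way from myelin genes. Of 20, 16 had a negative interaction, with a median of -0.47. The median stress difference was -0.14 in hets and 0.32 in wild types. Sox4, a transcription factor of newborn neurons, had 8.95, 9.70 and 10.5 CPM in stressed hets, 10.3, 9.78 and 9.83 in control hets, 11.2, 12.9 and 12.5 in stressed wild types and 9.39, 8.99 and 8.81 in control wild types. Stressed wild types lay above all 9 other libraries, and the het groups overlapped. Its interaction was -0.47 ± 0.17 (unadjusted p = 0.0186), but -0.07 on the log2(TPM + 1) scale. Mki67, a marker of dividing cells, had 0.728, 0.752 and 0.508 CPM in stressed hets, 0.421, 1.42 and 0.823 in control hets, 0.730, 1.63 and 1.89 in stressed wild types and 0.494, 0.558 and 0.903 in control wild types. Stressed wild-type replicates 2 and 3 were the highest, stressed wild-type replicate 1 was not, and the interaction was -1.54 ± 0.68. Top2a, a topoisomerase of dividing cells (-1.28 ± 0.69), and the interneuron and spiny neuron factor Dlx5 (-0.47 ± 0.24) had an unadjusted p over 0.05. The list's median lay between -0.54 and -0.36 when single libraries were left out, and was -0.44 without stressed wild-type replicate 2, whose Xist went against its label and whose list level was the highest of all.

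Genes shared by spiny projection neurons were negative in 23 of 24 with a small median, -0.21, and none had an unadjusted p under 0.05. The first were Tmem158 (-0.46 ± 0.23), the retinoid receptor gene Rxrg (-0.45 ± 0.25), the cAMP-regulated phosphoprotein gene Arpp21 (-0.24 ± 0.20) and the kinase gene Dclk3 (-0.32 ± 0.34). Their median ran from -0.49 (without control het replicate 1) to -0.03 (without stressed wild-type replicate 3) with a library left out, and was 0.04 on the log2(TPM + 1) scale. Control het replicate 1 was also the lowest library in the list's mean level, at -0.64 against -0.34 to 0.41 in the other 11. Direct pathway genes (8 of 10 negative, median -0.05) and indirect pathway genes (7 of 9 negative, median -0.17) were led by the neuropeptide gene Tac1 (-0.49 ± 0.30) and the transcription factor gene Sp9 (-0.49 ± 0.34). Striatal interneuron genes were split, with 8 of 15 positive. The calcium buffer gene Pvalb, which marks fast-spiking interneurons in the striatum and is also expressed in the reticular thalamus, had 102, 131 and 76.1 CPM in stressed hets, 99, 98.9 and 100.0 in control hets, 75, 123 and 16.4 in stressed wild types and 209, 158 and 219.6 in control wild types. Control wild types were the highest and stressed wild-type replicate 3 was far below the rest, and the interaction was 1.5 ± 0.72 (unadjusted p = 0.0625).

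Several lists that mark tissue beside the striatum had medians that changed with single libraries. Thalamus genes were positive in 11 of 13, with a median of 0.49, and 3 had an unadjusted p under 0.05. Shox2, a homeodomain factor of the thalamus, had 0.257, 0.711 and 0.277 CPM in stressed hets, 0.187, 0.503 and 0.165 in control hets, 0, 0.326 and 0.0573 in stressed wild types and 1.54, 1.40 and 7 in control wild types. Control wild types lay above all other libraries, and replicate 3 was far above the others. Ramp3, a receptor activity-modifying protein, had 12.5, 20.6 and 11 CPM in stressed hets, 16.4, 15.2 and 13.5 in control hets, 11, 17.9 and 5.73 in stressed wild types and 32, 21.3 and 35.6 in control wild types, again with control wild types highest. The interaction was 5.07 ± 1.34 for Shox2, 1.33 ± 0.52 for Ramp3, 1.62 ± 0.69 for the kinase gene Prkcd and 0.89 ± 0.46 for the netrin family gene Ntng1. Without control wild-type replicate 3, whose mean list level was 1.18 against -0.45 to 0.28 in the other 11 libraries, the list's median was 0.01.

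Choroid plexus genes, of the tissue that secretes cerebrospinal fluid, had a median of 1.74 and were positive in 15 of 16. Ttr, transthyretin, had 3.73, 7.90 and 390.4 CPM in stressed hets, 541, 673 and 1.65 in control hets, 0.803, 2.01 and 7.57 in stressed wild types and 550.3, 246 and 217 in control wild types. Ttr was high in 1 of 3 stressed hets, 2 of 3 control hets, 0 of 3 stressed wild types and 3 of 3 control wild types. The median was -0.30 without stressed het replicate 3. Ependymal genes of motile cilia were negative in 10 of 13, with a median of -0.18, and the axonemal dynein gene Dnah9 (-0.95 ± 0.65) came first. Their median was -1.12 without stressed het replicate 3 and -1.02 without control wild-type replicate 1.

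Cortical excitatory neuron genes were positive in 8 of 14, with a median of 0.34 that was -0.36 without control wild-type replicate 2. Their mean level was 0.36, 0.57 and 0.12 in stressed hets, 0.37, -0.40 and -0.95 in control hets, 0.75, 0.44 and -0.87 in stressed wild types and -0.30, 0.71 and -0.81 in control wild types, so that every group except stressed hets held libraries far apart. Hypothalamic peptide genes were negative in 11 of 13, with a median of -0.46 that was 0.57 without control het replicate 1 and 0.33 with limma-voom. Pmch, the precursor of melanin-concentrating hormone, had 1.03, 0.293 and 0.600 CPM in stressed hets, 41.2, 0.411 and 0.329 in control hets, 0.876, 0.705 and 0.459 in stressed wild types and 7.52, 1.56 and 0.282 in control wild types. Only control het replicate 1 and, less so, control wild-type replicate 1 were high. Septum, pallidum and basal forebrain genes were negative in 9 of 12, with a median of -0.13, led by Dlk1 (-1.51 ± 0.98). That median was 0.17 without stressed wild-type replicate 3, 0.18 with limma-voom and -0.39 without stressed het replicate 3.

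**Figure D5:**
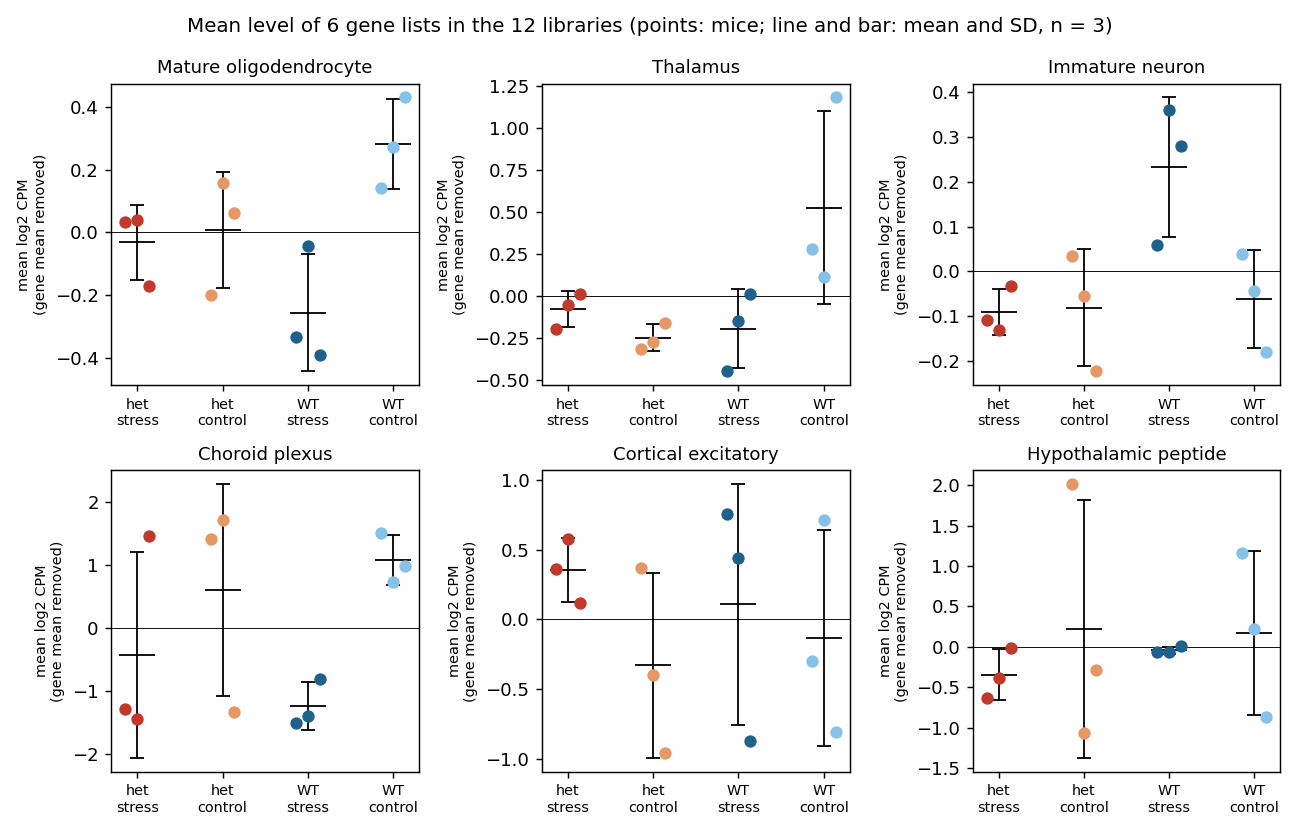
Mean log2 CPM of 6 gene lists after removal of each gene's mean (vertical axis, scale differs between panels) in the 12 libraries, by group from stressed hets on the left to control wild types on the right. Points are mice and the line and bar are the mean and SD of 3. Wild-type groups are apart for the mature oligodendrocyte, choroid plexus and thalamus lists and, by a narrow margin, for the immature neuron list. Single libraries stand far out for the thalamus and hypothalamic peptide lists.

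The last 2 of the 8 lists with the farthest medians were small in size. All 13 mitochondrially encoded genes had a negative interaction, with a median of -0.26, and 0 had an unadjusted p under 0.05. With a library left out the median ran from -0.46 (without control wild-type replicate 3) to 0.03 (without control wild-type replicate 1). The first was mt-Co2, a subunit of cytochrome c oxidase (-0.27 ± 0.24). Neurotrophin and receptor genes were positive in 8 of 12, with a median of 0.25 that was 0.098 without control wild-type replicate 3, 0.11 without stressed wild-type replicate 2 and 0.16 without control wild-type replicate 2. The neurotrophin receptor gene Ngfr had 13.4, 5.81 and 7.11 CPM in stressed hets, 3.79, 3.79 and 8.06 in control hets, 7.52, 9.06 and 3.32 in stressed wild types and 7.41, 9.77 and 20.2 in control wild types, with overlap in both genotypes and an interaction of 1.66 ± 0.71 (unadjusted p = 0.0407). Cntf, the ciliary neurotrophic factor (0.65 ± 0.52), Ret, the GDNF co-receptor (0.70 ± 0.59), and Gfra2, a binding receptor for neurturin (0.37 ± 0.37), followed.

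The lists closest to the treatment and to the mutated gene lay near the background. Glucocorticoid response and stress axis genes were positive in 11 of 21 with a median of 0.07, immediate early genes in 15 of 29 with a median of 0.00, and Caspr, contactin and Kv1 complex genes in 15 of 26 with a median of 0.03. No gene of these lists had an unadjusted p under 0.05. Glutamate receptor genes were positive in 9 of 18 and included Gria4. GABA-A receptor genes were positive in 5 of 14. Interferon and antigen presentation genes were positive in 21 of 23 with a median of 0.22, but the stress medians were negative in both genotypes, -0.34 in hets and -0.49 in wild types. Cytosolic ribosomal protein genes were negative in 42 of 44, with a median of -0.23 and none with an unadjusted p under 0.05. Their mean level was highest in control het replicate 1 (0.81) and control wild-type replicate 1 (0.67) and lowest in control wild-type replicate 3 (-0.77) and stressed wild-type replicate 3 (-0.70), the 4 libraries that stood apart in length slope, against -0.31 to 0.27 in the other 8. The part of these libraries in the median was not tested.

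One fit made calls. It took gene length slope as a covariate and left out control het replicate 1 and control wild-type replicate 1, a combination chosen after seeing the data, and edgeR called 74 of 16040 genes (0.461%), 47 positive and 27 negative. Of the genes named above, Gm11175, Tmem158, Dclk3 and Ugt8a were among them. They included 4 of the 14 cortical excitatory neuron genes, namely the vesicular glutamate transporter Slc17a7 (2.93 ± 0.31, SE) and the cortical transcription factors Neurod2 (1.98 ± 0.28), Tbr1 (2.13 ± 0.30) and Neurod6 (2.91 ± 0.42), and also Bdnf (2.92 ± 0.43), the neurotrophin that cortical neurons supply to the striatum. In the fit of all 12 libraries the interactions were 0.81 ± 1.37 for Slc17a7, 0.39 ± 1.28 for Neurod2, 0.65 ± 1.19 for Tbr1, 0.66 ± 1.48 for Neurod6 and 0.74 ± 1.27 for Bdnf. With 10 libraries the fit that made calls kept 2 control mice per genotype, and in these the cortical list ran from -0.95 to 0.71. The part of cortical tissue in these calls was not tested.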

How the data were processed

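RNA of 12 mice was analysed. Per the labels, RNA came from striatal micropunches by AllPrep, and a NuGen kit with random primers gave the libraries. The submitters' processing notes name RSEM, Bowtie and the build mm9 (NCBIM37). The versions used are not given in these sources. The deposited files give, per gene and library, the expected count and the TPM that RSEM estimated, per the file headers, with no pooling. The 5hmC data were not analysed here. Strand use is not stated, so overlapping and antisense genes cannot be told apart, and multi-copy genes are uncertain.

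Expected counts were rounded to whole numbers, and edgeR 4.0.16 in R 4.3.3 fitted the 4 group means (glmQLFit, robust; glmQLFTest) after filterByExpr and TMM scaling. P-values are two-sided, adjusted by Benjamini-Hochberg over all 15955 genes and called at 0.05. Values per library are TMM-scaled CPM, and overlap between groups was judged on them. In TPM some groups given here as apart overlapped, among them the wild-type groups of Hhatl and the genotypes of Zfp7. Errors are SE of the log2 difference. List levels are mean log2 CPM (prior count 2) minus each gene's mean. The biological coefficient of variation was 0.256. Replicate pairs differed beyond sampling noise, with a chi-square of 8.91 to 219.6 per gene (genes of at least 10 counts in the pair), where sampling alone gives about 1. The fit was tested on simulated data with known changes.

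The genes named by rule are Cntnap2, the 12 genes of smallest interaction p in each direction, the 4 of smallest p per shape with a symbol and at least 5 TPM on average, 4 additive genes per factor, and the 4 members of smallest p in the lists described (the 8 with the farthest medians and the cell type lists). Genes outside these rules were named as well. Among them are Gm6736, Pvalb, Tac1, Sp9, Htr2a, members of the other gene lists and genes of the fit that made calls. The gene lists and other choices were made with earlier results of these data known. Alternatives were DESeq2 1.42.0, limma 3.58.1 (trend, voom), RLE scaling, no filter, a length slope covariate, a replicate block, single libraries left out, and values on the log2(TPM + 1) scale. Some genes that these rules name are not reported here.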

Additional observations from a re-analysis of the deposited data

How the results depend on the processing

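The count of 0 interaction calls was the same in all planned settings and in the 12 fits that left out a library, and was 74 with the length slope covariate and without both control libraries of lowest slope, a setting chosen after seeing the data. Fitting the replicate numbers as a replicate block gave 0 calls and 303 genes with an unadjusted p under 0.05. Of 18 same-number pairs 9 had deviations correlated over 0.1 (-0.26 to 0.67). Replicate 1 of control hets and of control wild types correlated at 0.67, as did replicate 3 of these groups. Among different-number pairs, control wild-type replicate 3 was at -0.74 with control het replicate 1 and at 0.42 with control het replicate 2. Whether the numbers mark a shared source of variation was not tested. Genes with an unadjusted p under 0.05 numbered 408 with no filter on low counts, 957 with the length slope covariate, 2417 with limma-voom and sample weights, 2350 in the added setting above, 351 with limma-trend on log2(TPM + 1), also added after seeing the data, and 140 to 522 with a library left out. Opposite, buffered and enhanced genes numbered 999, 751 and 667 with limma-voom, 6, 7 and 1 at an unadjusted p under 0.01, and 145, 54 and 11 at a ratio of 0.25. With a library left out they ran from 58 to 257 (opposite), 57 to 215 (buffered) and 12 to 139 (enhanced). Spearman's rho was 0.45 for genes of at least 10 CPM and -0.23 to 0.50 with a library left out.

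The Cntnap2 interaction was 0.085 with limma-voom, 0.061 in the added setting with the covariate, 0.22 in log2(TPM + 1) and -0.27 to 0.20 with a library left out. Of 1932 comparisons of a single gene's interaction with an alternative, 1899 kept sign and call, 29 reversed, 4 passed the threshold and 0 fell below it. With limma-voom C1qa was at -0.084, Crhr2 at 0.42, Oxt at 1.24 and Pmch at 1.25. In the added covariate setting C1qa was at -0.048 and Pmch at 1.23, and on the TPM scale Lamp5 was at 0.091. With a library left out the reversed genes ran from -0.15 to 4.1 (Gm6736), -0.19 to 0.38 (C1qa), -0.41 to 0.038 (Acta2), -0.16 to 1.14 (Tekt4), -0.0078 to 0.71 (Ogn), -0.20 to 0.67 (Nptx1), -0.28 to 1.30 (Fezf2), -1.16 to 0.16 (Zic4), -0.99 to 0.21 (Crhr2), -1.57 to 0.12 (Pomc), -2.99 to 0.80 (Cartpt) and -3.97 to 2.99 (Pmch).

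List medians moved as follows. With limma-voom they were 0.32 (mature oligodendrocyte), 0.22 (choroid plexus), 1.03 (cortical excitatory neuron) and 0.33 (hypothalamic peptide). The hypothalamic peptide median was -0.035 on the TPM scale. Other medians on the TPM scale were 0.68 (mature oligodendrocyte), 0.37 (choroid plexus), -0.17 (immature neuron), 0.37 (astrocyte) and 0.30 (microglia), and the ependymal median was -0.86 in the added covariate setting. With a library left out the medians ran from -0.30 to 2.45 (choroid plexus), 0.011 to 0.81 (thalamus), -0.36 to 0.79 (cortical), -0.99 to 0.57 (hypothalamic peptide), -0.038 to 0.39 (oligodendrocyte precursor), 0.16 to 0.28 (astrocyte), -1.12 to -0.066 (ependymal), -0.056 to 0.33 (meningeal), -0.49 to -0.027 (spiny projection neuron), -0.39 to 0.17 (septum), -0.46 to 0.033 (mitochondrially encoded), 0.098 to 0.33 (neurotrophin), 0.0050 to 0.18 (microglia) and -0.27 to 0.17 (endothelial). Those of mature oligodendrocyte (0.40 to 0.58) and immature neuron genes (-0.54 to -0.36) stayed within 1.5 times. The cause of these changes was not tested. With 3 mice a group and a median SE of 0.36, interactions of the sizes given here were mostly not detectable.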

Other observations

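Other gene lists, which the rule for the lists described did not take, had the following interactions, beside a median of -0.01 and 48.2% positive over all genes tested. Heat shock and unfolded protein genes were positive in 22 of 26, with a median of 0.18, a median stress difference of -0.00 in hets and -0.19 in wild types, and no gene at an unadjusted p under 0.05. Their members of smallest p were the co-chaperone gene Bag3 (0.68 ± 0.38, SE) and the chaperone genes Hsp90ab1 (0.31 ± 0.18), Hsp90aa1 (0.37 ± 0.22) and Hspa8 (0.37 ± 0.24). Cholesterol synthesis genes were positive in 17 of 19, with a median of 0.13, led by the squalene epoxidase gene Sqle (0.29 ± 0.25). Genes of postsynaptic scaffolds and adhesion were negative in 21 of 25, with a median of -0.04, led by the scaffold genes Dlgap3 (-0.56 ± 0.60) and Shank3 (-0.56 ± 0.66). Dopamine receptor and cAMP signalling genes were negative in 14 of 18, with a median of -0.15. Genes that write, read or remove DNA methylation and hydroxymethylation were negative in 14 of 17, with a median of -0.12, led by Mbd4 (-0.26 ± 0.21). Serotonin receptor genes were positive in 7 of 12. The receptor gene Htr2a was higher in stressed than in control hets without overlap, with 15.6, 15.2 and 11.8 CPM in stressed hets, 7.16, 8 and 8.14 in control hets, 13.1, 12.0 and 12.6 in stressed wild types and 7.96, 12.6 and 9.14 in control wild types. Its interaction was 0.53 ± 0.25 (SE), with an unadjusted p of 0.062. Circadian clock genes (12 of 19 negative), opioid and endocannabinoid genes (7 of 14 positive) and nuclear respiratory chain genes (19 of 31 negative) had medians of -0.04, 0.02 and -0.11.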
